A study of Mus musculus with 15 samples.

Results

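Mouse skin tumour cells that were CD34-negative and high in integrin alpha 6 (a6, encoded by Itga6) were compared between animals lacking the deacetylase SIRT6 in keratinocytes and wild-type animals, across all genes. The members were the libraries whose labels give this sort gate, 2 libraries labelled SIRT6 KO and 3 labelled WT, 5 of the 15 libraries of the series. KO animals carried K14-cre and SIRT6 flox/flox alleles, so that deletion is limited to cells in which the K14 promoter is or was active, that is, keratinocytes and their descendants. The labels give WT with no further alleles, and they name no control that carries Cre or the floxed alleles alone. Both genotypes had the C57BL/6 background. Both had received DMBA, which mutates skin cells, followed by the tumour promoter TPA, a phorbol ester, over more than 24 weeks, so that every cell compared came from an induced skin tumour. The labels give neither ages nor the exons that are floxed, and they do not say whether the libraries of a genotype came from separate animals.

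SIRT6 is a nuclear NAD-dependent enzyme that removes acetyl groups from histone H3 and takes part in DNA repair and telomere maintenance. It is known as a repressor of glycolytic genes that respond to the hypoxia factor HIF1, and in some tumour models its loss increases glucose use. In squamous skin tumours, a6 marks the basal, matrix-attached cells, and CD34 marks a subset of these that is enriched in tumour-propagating cells. The comparison therefore asks which transcripts differ with SIRT6 in a6-high tumour cells outside the CD34-positive subset.

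The KO libraries held 24.28 and 19.78 M gene counts and the WT libraries 14.96, 20.53 and 13.68 M. Itga6, the sorted integrin, had 379 and 359.8 CPM (counts scaled to a library size of 1 M, after TMM correction) in KO libraries, against 393, 459.9 and 402 CPM in WT libraries. Cd34 had 10.9 and 18.4 CPM in KO libraries, against 18.96, 11.3 and 20.9 CPM in WT libraries. Krt5, a basal keratin, had 12841 and 9745 CPM in KO libraries, against 7135, 13472 and 7735 CPM in WT libraries, so that the keratinocyte label was met in all 5. Sirt6 itself had 8.53 and 6.88 CPM in KO libraries, against 5.41, 9.12 and 4.45 CPM in WT libraries, a log2 difference of 0.28 ± 0.33 (SE) with an adjusted p of 0.772 in edgeR's quasi-likelihood test. The genotypes overlapped. Counts over the whole gene do not show whether the floxed exons were lost, so the Sirt6 level checks nothing about the labels, and KO below means the libraries labelled KO.

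Of the libraries compared, WT replicate 2 stood apart from the other WT libraries. Over 9631 genes, the root mean square log2 difference was 0.509 between WT replicate 2 and either KO library, against 0.605 between the KO libraries. It was 0.661 between WT replicates 1 and 2, 0.598 between replicates 2 and 3, and 0.505 between replicates 1 and 3. The remaining pairs of a KO and a WT library differed by 0.747 to 0.783. By whole-transcriptome distance, WT replicate 2 was thus nearer to the KO libraries than to the WT libraries. The Y-linked helicase gene Ddx3y had 0 and 51.9 CPM in KO libraries, against 0, 0.191 and 0 CPM in WT libraries. Xist, the RNA that silences an X chromosome, had 53.4 and 0 CPM in KO libraries, against 24.01, 81.3 and 27.6 CPM in WT libraries. By sex-linked transcripts KO replicate 2 was thus male and the other 4 libraries female.

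One gene, Eno1b, passed an adjusted p of 0.05 in edgeR among 14652 tested (0.00683%). Eno1b had 91.3 and 81.3 CPM in KO libraries, against 6.42, 4.01 and 6.29 CPM in WT libraries. The log2 difference was 3.96 ± 0.28 (SE), with an adjusted p of 6.47e-05, and every KO library lay far above every WT library. The gene is listed as coding for an enolase, the glycolytic enzyme that forms phosphoenolpyruvate, and it is a near copy of Eno1. Reads may have been exchanged between such copies at counting, so its level is uncertain. Eno1 itself had 1596 and 1377 CPM in KO libraries, against 3012, 1856 and 3269 CPM in WT libraries, with a log2 difference of -0.87 ± 0.26 and an adjusted p of 0.498. Both KO libraries were below all WT libraries for Eno1, which did not pass the test. Eno1b also differed in the populations sorted beside this one, by a log2 of 4.27 in CD34-positive a6-high cells and 4.23 in a6-low cells. Its difference remained past the threshold in each alternative tried, with log2 values between 3.76 and 4.09.

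DESeq2, fitted to the same counts, called 38 of the 14626 genes to which it gave an adjusted p (0.26%), 26 higher and 12 lower in KO, Eno1b among them. At an unadjusted edgeR p under 0.05 there were 1405 genes (9.59%), 774 higher and 631 lower. The libraries of the genotypes did not overlap at 4432 genes. Both KO libraries were above all WT libraries at 2424 genes (16.5%) and below them at 2008 (13.7%). Single genes other than Eno1b are therefore given below as levels, with the call of DESeq2 named where it was made.

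**Figure D1:**
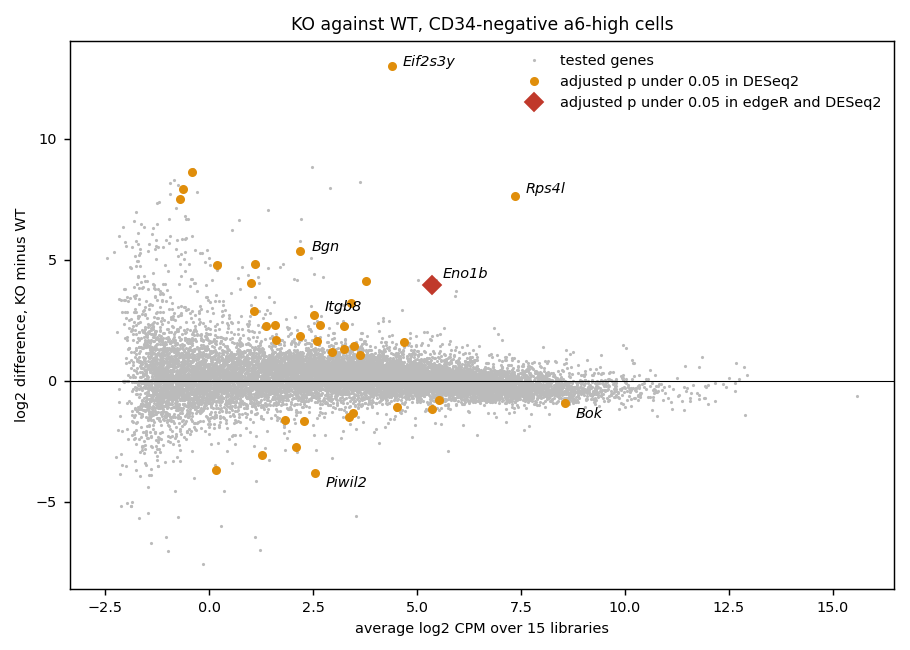
Difference between KO and WT (log2, vertical axis) against average level over 15 libraries (log2 CPM, horizontal axis), 1 point per gene among 14652. The diamond is Eno1b, past the threshold in edgeR and DESeq2, at 3.96, and the orange points are the other genes called by DESeq2, of which 6 are labelled. Most genes sit near 0, with a wider spread at low levels.

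Next to Eno1b, 10 protein-coding genes with the smallest edgeR p among those higher in KO had log2 differences of 1.05 to 5.35. The proteoglycan gene Bgn (biglycan, a matrix protein) had 5.42 and 29.9 CPM in KO libraries, against 0.3605, 0.764 and 0.0767 CPM in WT libraries. Its log2 difference was 5.35 ± 0.83, with an adjusted p of 0.111 in edgeR and 9.17e-08 in DESeq2, and the KO libraries differed from each other by several fold. Itgb8, an integrin subunit that activates latent TGF-beta, had 6.71 and 10.9 CPM in KO libraries, against 0.577, 1.62 and 1.76 CPM in WT libraries (log2 2.72 ± 0.53). Mill1, an MHC class I-like gene, had 15.4 and 8.63 CPM in KO libraries, against 2.88, 3.296 and 1.15 CPM in WT libraries (log2 2.28 ± 0.54). For these genes, both KO libraries were above all WT libraries, as the naming rule requires.

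Pparg, the nuclear receptor that directs lipid and sebocyte programmes, had 5.04 and 13.4 CPM in KO libraries, against 2.23, 1.29 and 2.07 CPM in WT libraries (log2 2.31 ± 0.50). KO replicate 2 had the higher value of the KO libraries. Signal receptors were among the higher genes as well. S1pr3, a receptor for sphingosine 1-phosphate, had 15.8 and 16.8 CPM in KO libraries, against 6.56, 7.12 and 4.22 CPM in WT libraries (log2 1.45 ± 0.35). Plxna2, a semaphorin receptor, had 13.3 and 14.98 CPM in KO libraries, against 5.62, 6.97 and 4.45 CPM in WT libraries (log2 1.31 ± 0.27). For both receptors the KO libraries lay close together. 

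The nuclear and signalling genes in this set were Cabin1, Gzf1, Mbd5 and Ptpn4. Cabin1, an inhibitor of calcineurin and a partner of a histone chaperone, had 16.8 and 19.1 CPM in KO libraries, against 7.28, 10.03 and 8.59 CPM in WT libraries (log2 1.05 ± 0.22). Gzf1, a zinc finger repressor, had 10.7 and 11.7 CPM in KO libraries, against 4.47, 6.26 and 3.76 CPM in WT libraries (log2 1.21 ± 0.27). Of the WT libraries, replicate 2 was highest for both. Mbd5, a methyl-CpG-binding domain protein, had 5.84 and 11.8 CPM in KO libraries, against 1.87, 4.06 and 1.38 CPM in WT libraries (log2 1.83 ± 0.43). Ptpn4, a protein tyrosine phosphatase, had 7.81 and 12.5 CPM in KO libraries, against 2.38, 5.06 and 1.84 CPM in WT libraries (log2 1.70 ± 0.42). WT replicate 2 again came nearest to the KO libraries. DESeq2 called each of these 11 higher genes but Ptpn4, for which its adjusted p was 0.0529, and for the 10 genes besides Eno1b edgeR's adjusted p lay between 0.111 and 0.498.

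Among 11 genes lower in KO, named by the same rule, the largest differences were at genes of low level. Piwil2, a PIWI protein that silences transposons in the germ line, had 0.644 and 0.3503 CPM in KO libraries, against 8.15, 8.55 and 4.29 CPM in WT libraries (log2 -3.79 ± 0.81, edgeR adjusted p 0.4396, DESeq2 adjusted p 0.000421). Twist1, a transcription factor of epithelial-mesenchymal transition, had 0.0758 and 0.657 CPM in KO libraries, against 1.87, 2.53 and 2.84 CPM in WT libraries (log2 -2.73 ± 0.70). At these levels Twist1 rests on few reads in the KO libraries. Tdg, a glycosylase that removes thymine from mismatches and takes part in DNA demethylation, had 15.9 and 10.99 CPM in KO libraries, against 24.2, 25.3 and 36.7 CPM in WT libraries (log2 -1.09 ± 0.28). Rbpms, an RNA-binding protein, had 18.5 and 8.76 CPM in KO libraries, against 28.9, 33.1 and 30.4 CPM in WT libraries (log2 -1.18 ± 0.30). KO replicate 2 was the lowest library for Piwil2, Tdg and Rbpms, and KO replicate 1 for Twist1.

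Abundant genes in the lower set differed by less than a log2 of 1. Anxa1 (annexin A1, a phospholipid-binding protein that dampens inflammation) had 2135 and 2289 CPM in KO libraries, against 4963, 3316 and 4571 CPM in WT libraries (log2 -0.95 ± 0.25). Bok, a member of the BCL2 family that promotes cell death, had 251 and 199.56 CPM in KO libraries, against 424, 373 and 490.3 CPM in WT libraries (log2 -0.93 ± 0.22). The KO libraries lay close together for both. Fkbp4, a co-chaperone of HSP90 and steroid receptors, had 217 and 203 CPM in KO libraries, against 379, 295 and 394 CPM in WT libraries (log2 -0.76 ± 0.20). WT replicate 2 was the WT library nearest to the KO libraries for Anxa1, Bok and Fkbp4.

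The remaining lower genes act in secretory, lipid and ribosome-related processes. Agpat2, an acyltransferase of triglyceride and phospholipid synthesis, had 38.2 and 31.2 CPM in KO libraries, against 62.8, 51.3 and 64.6 CPM in WT libraries (log2 -0.78 ± 0.21). Slc35b2, which carries the sulfate donor PAPS into the Golgi, had 67.6 and 57.6 CPM in KO libraries, against 130.3, 88.5 and 117 CPM in WT libraries (log2 -0.84 ± 0.22). Both had WT replicate 2 as the lowest WT library. Praf2, a membrane protein of the secretory pathway, had 15.95 and 16.9 CPM in KO libraries, against 31.6, 23.9 and 39.7 CPM in WT libraries (log2 -0.95 ± 0.25). Rpl7l1, a ribosomal protein L7-like gene, had 212 and 213 CPM in KO libraries, against 456, 264 and 409.7 CPM in WT libraries (log2 -0.82 ± 0.22). None of the 11 lower genes passed edgeR's threshold, with adjusted p between 0.4396 and 0.498, and DESeq2 called 6 of them, Piwil2, Bok, Rbpms, Tdg, Twist1 and Agpat2.

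**Figure D2:**
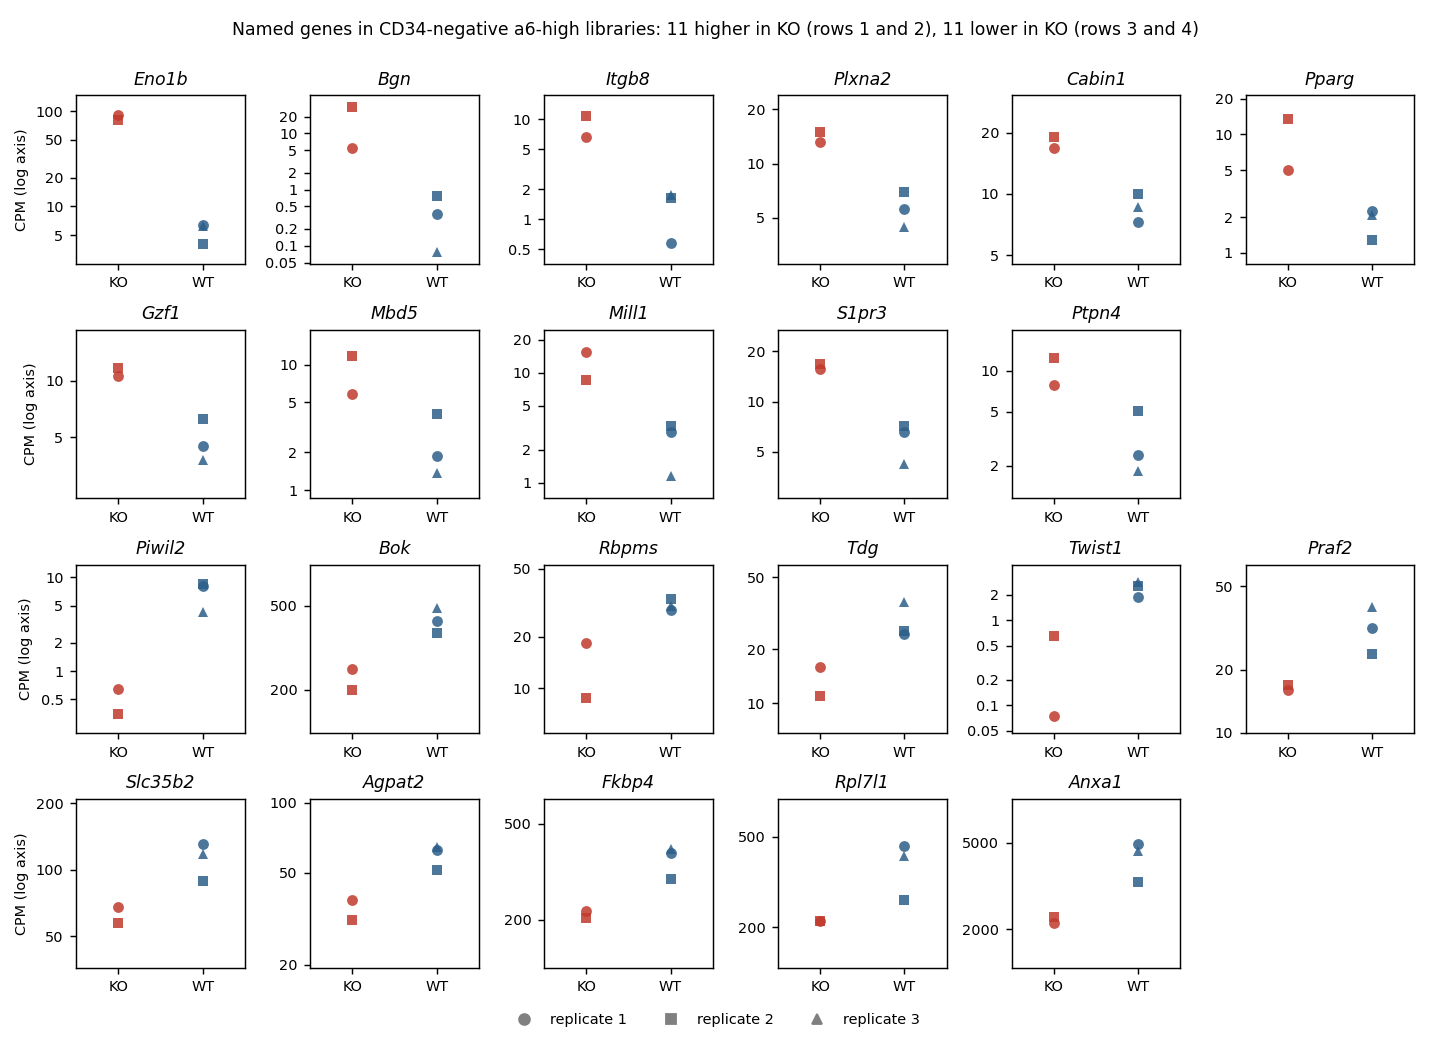
Level (CPM, log axis) of the 22 named genes in each KO library (left, red) and each WT library (right, blue), 1 panel per gene and 1 symbol per replicate number. No KO library overlaps a WT library in any panel, which the naming rule requires, and WT replicate 2 (blue square) is the WT library nearest to KO for many genes, with Rpl7l1 at 264 CPM as an example.

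DESeq2 called further genes that the conditions or the p rank of the naming rule left out. The largest by level was Rps4l, a copy of a ribosomal protein gene in a pseudogene class, with 287 and 499.59 CPM in KO libraries, against 3.53, 0.191 and 2.45 CPM in WT libraries. Its adjusted p was 2.28e-07 in DESeq2 and 0.0934 in edgeR. Rps4l-ps, a processed pseudogene of the same family, had 1.14 and 1.27 CPM in KO libraries, while all WT libraries were at 0, so that it was at least 19.1-fold higher in KO against a floor of 3 counts over the WT group. Gm4735, another processed pseudogene, had 44.5 and 37.5 CPM in KO libraries, against 14.2, 8.46 and 17.9 CPM in WT libraries. Gm5436, Gm7862 and Gm11663, also processed pseudogenes, were lower in KO, with Gm5436 at 3.87 and 6.13 CPM in KO libraries, against 16.9, 10.4 and 15.3 CPM in WT libraries. Pseudogene-class genes made up 6 of the 38 calls, and since such copies share sequence with their parent genes, reads may have been exchanged between them.

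Among protein-coding genes of low level, Chn2, a regulator of the GTPase RAC, had 5.12 and 5.96 CPM in KO libraries, against 1.01, 0.717 and 0.537 CPM in WT libraries. Fv1, a retrovirus restriction gene of endogenous viral origin, had 4.85 and 4.77 CPM in KO libraries, against 0.937, 0.955 and 1.07 CPM in WT libraries. Pik3r3, a regulatory subunit of PI3 kinase, had 4.13 and 5.299 CPM in KO libraries, against 0.505, 1.58 and 0.6902 CPM in WT libraries. Chn2 and Fv1 had close values within each genotype, as had Afp (alpha-fetoprotein), with 0.227 and 0.175 CPM in KO libraries, against 1.66, 1.67 and 1.92 CPM in WT libraries. Other DESeq2 calls rested mainly on 1 KO library. Gbp2, an interferon-induced GTPase, had 101 and 3.11 CPM in KO libraries, against 2.31, 4.54 and 2.07 CPM in WT libraries, so that KO replicate 2 lay within the WT range. Syn2, a synapsin of synaptic vesicles, had 0.189 and 4.95 CPM in KO libraries and Serping1, the C1 inhibitor of complement, had 2.92 and 0.263 CPM in KO libraries, with every WT library at 0 for both. Against the floor of 3 counts over the WT group, Syn2 was at least 38.2-fold and Serping1 at least 26.9-fold higher in KO. The Y-linked translation factor gene Eif2s3y had 0 and 109 CPM in KO libraries and was at 0 in all WT libraries, so it followed the sex of KO replicate 2. Of the calls not yet named, Irgm1, an interferon-induced GTPase, was highest in KO replicate 1 and Dact2, a regulator of WNT and TGF-beta signals, in KO replicate 2. Epg5, an autophagy gene, and the predicted gene Gm5724 were higher in both KO libraries, and Rab6b, a GTPase of Golgi transport, was lower in both. Of the 38 calls, 36 had libraries that did not overlap, against 4432 of the 14652 genes tested. A call itself favours such separation. In the other populations sorted, 31 of the 38 had the same direction in both. Bgn, Mill1, S1pr3, Epg5, Gbp2, Syn2 and Serping1 were reversed in CD34-positive a6-high cells. In CD34-positive a6-high and CD34-negative a6-low cells, Rps4l was at log2 5.61 and 6.85. Gm4735 was at 1.85 and 2.07, and Fv1 at 2.70 and 1.76.

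The same difference was measured in the populations sorted beside this one, whose libraries carry the same replicate numbers and may come from the same animals. Of the 22 named genes, 19 had the same direction in CD34-positive a6-high cells, 21 in CD34-negative a6-low cells and 18 in both. The exceptions in CD34-positive cells were Bgn, Mill1 and S1pr3, at log2 values of -0.25, -0.82 and -0.10. In a6-low cells the exception was Anxa1, at 0.25. The a6-low libraries were uneven in Itga6, with 67.9 and 445 CPM in KO libraries, against 471, 94.1 and 174 CPM in WT libraries. By this transcript, KO replicate 2 and WT replicate 1 of the a6-low gate were near the a6-high libraries, which limits comparisons with that population. Whether a difference was particular to CD34-negative a6-high cells was tested as the difference of differences. The fit had no term for animal, so any pairing of populations within an animal was not used in this test. No gene passed in edgeR (0% of 14652 against either population), with 159 genes at an unadjusted p under 0.05 against CD34-positive a6-high cells and 168 against CD34-negative a6-low cells. DESeq2 called 1 gene against CD34-positive a6-high cells, Bgn, and 0 against CD34-negative a6-low cells.

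Bgn in CD34-positive a6-high cells had 0.756 and 1.28 CPM in KO libraries, against 1.29, 1.09 and 1.23 CPM in WT libraries. In CD34-negative a6-low cells it had 3.45 and 8.92 CPM in KO libraries, against 6.21, 2.66 and 2.82 CPM in WT libraries. DESeq2 put the difference of differences from CD34-positive a6-high cells at 5.62 ± 1.11 (SE), with an adjusted p of 0.00603. Fibroblasts also make biglycan, and the summed level of the 12 fibroblast markers was 268 and 232 CPM in KO libraries, against 244, 127 and 10.5 CPM in WT libraries of this population. That sum was nearly all Postn, and the collagen gene Col1a1 was at most 1.72 CPM in the 5 libraries. In sorted bulk samples, fewer cells of a type and less RNA per cell cannot be told apart, and the part of fibroblasts in the Bgn result was not tested.

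Catalase (Cat) had 88.8 and 94.4 CPM in KO libraries, against 85.3, 82.6 and 83.9 CPM in WT libraries of CD34-negative a6-high cells. In CD34-positive a6-high cells it had 261 and 226 CPM in KO libraries, against 168, 76.9 and 107 CPM in WT libraries. It was among the genes with the smallest p of those lower relative to that population, together with Twf2, an actin-binding protein, at log2 -0.62 ± 0.27 in CD34-negative a6-high cells. Against CD34-negative a6-low cells, such genes were Gfra1, a receptor for GDNF, at log2 1.20 ± 0.45, and, on the lower side, Mxd1, a partner of MAX that opposes MYC, at -0.33 ± 0.21, Sprr2e, a cornified envelope gene, at -1.48 ± 0.77, and Anxa1. Anxa1 in a6-low cells had 3700 and 5838 CPM in KO libraries, against 3569, 4435 and 4018 CPM in WT libraries. The lowest adjusted p of these differences in edgeR was 0.9999 in either test.

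**Figure D3:**
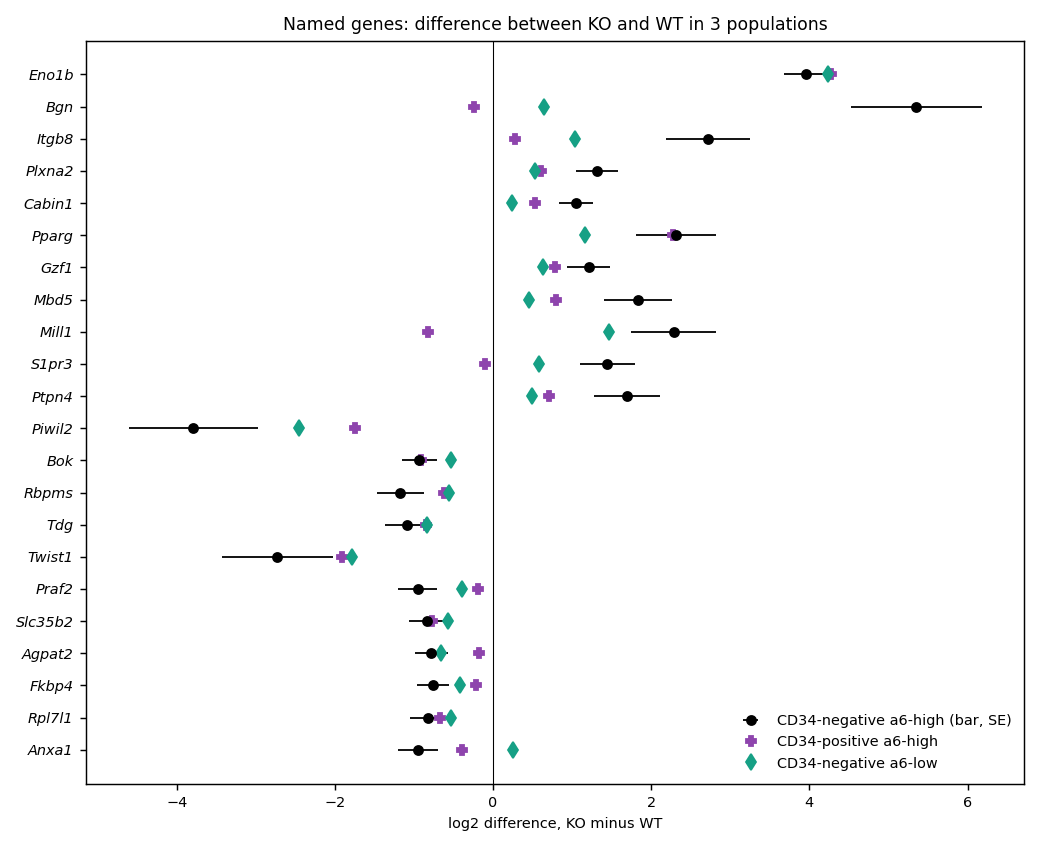
Difference between KO and WT (log2, horizontal axis) of the 22 named genes in CD34-negative a6-high cells (circle, bar is the SE), CD34-positive a6-high cells (cross) and CD34-negative a6-low cells (diamond). Eno1b is near 4 in each population, while Bgn is 5.35 in CD34-negative a6-high cells and -0.25 in CD34-positive a6-high cells.

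Differences moved with transcript length across the whole table. Over the 14159 genes with a known transcript length (96.6%), split into 4 bins of equal size, the median log2 difference was -0.23 in the bin of the shortest transcripts, then -0.05, 0.12 and 0.35 in the bin of the longest, against 0.05 over all genes tested. Both KO libraries were above all WT libraries at 7.06% of the genes of the shortest bin and 30.3% of the longest. They were below all WT libraries at 24.3% of the shortest and 5.17% of the longest. Spearman's correlation across genes between difference and length was 0.35, and it was -0.20 with level and -0.06 with GC content. These are descriptions across genes that share the same 5 libraries. By level, the median was 0.13, 0.24 and 0.13 in the lower 3 of 4 bins and -0.18 in the bin of the most abundant genes.

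Relative to the mean of the 5 libraries, genes of the longest bin lay at 0.20 and 0.11 in KO libraries, against -0.20, 0.05 and -0.18 in WT libraries. Genes of the shortest bin lay at -0.14 and -0.06 in KO libraries, against 0.15, -0.05 and 0.06 in WT libraries. WT replicate 2 lay with the KO libraries, and KO and WT otherwise separated. The share of reads outside genes moved the same way, at 4.11% and 4.64% in KO libraries, against 2.94%, 4.18% and 2.61% in WT libraries. So did the number of genes detected, at 19194 and 18321 in KO libraries, against 16835, 17653 and 16298 in WT libraries. Depth differed as well, at 24.28 and 19.78 M gene counts in KO libraries, against 14.96, 20.53 and 13.68 M in WT libraries. The part of depth in the number of genes detected was not tested. The part of library quality in the differences below was not tested, and for several lists the median is given also with an offset that removes the trend with length and GC content. The median of a list over the 5 libraries is followed in brackets by its lowest and highest value when 1 library was left out. For many lists that range is wider than the median itself, or spans 0. Each list's count of genes higher or lower without overlap stands against 16.5% higher and 13.7% lower over all genes.

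**Figure D4:**
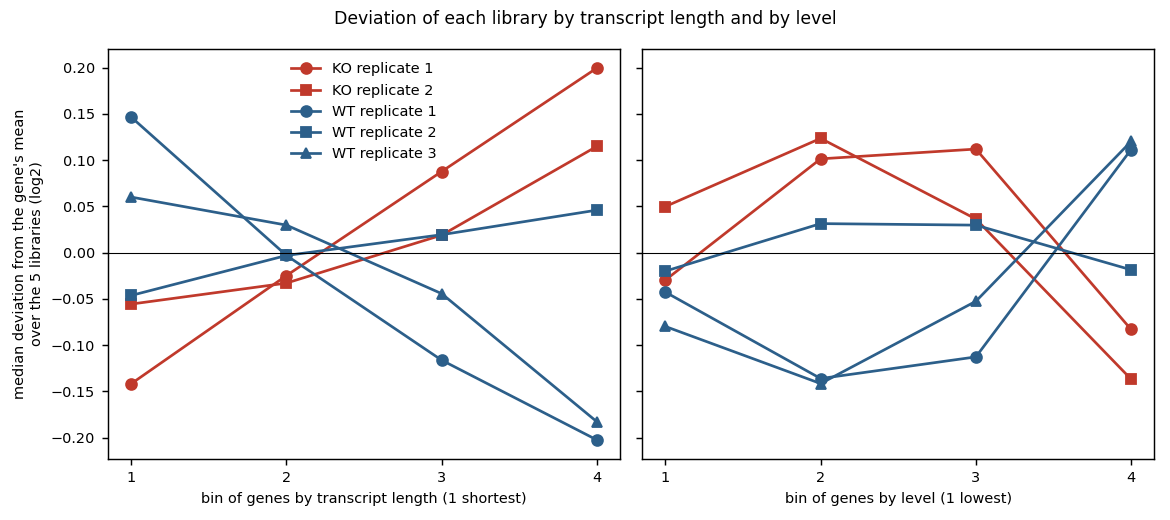
Median deviation of each library from the gene's mean over the 5 libraries (log2, vertical axis) in 4 bins of genes by transcript length (left) and by level (right), KO in red and WT in blue. With length, KO replicate 1 goes up to 0.20 and WT replicates 1 and 3 go down to -0.20 and -0.18, while WT replicate 2 stays between -0.05 and 0.05.

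Glycolysis, the pathway for which SIRT6 is best known, had no common direction. Of 20 glycolytic genes tested, both KO libraries were above all WT libraries at 3 and below them at 6 (all genes, 16.5% and 13.7%), with a median log2 difference of -0.19 (between -0.33 without KO replicate 1 and -0.08 without KO replicate 2) against 0.05 over all genes. Slc2a1, the main glucose importer of keratinocytes, had 666 and 560.0 CPM in KO libraries, against 245, 512 and 232 CPM in WT libraries, with WT replicate 2 close to KO. Pkm, pyruvate kinase, had 2761 and 2447 CPM in KO libraries, against 4468, 2887 and 4293 CPM in WT libraries. Pfkl, the liver-type phosphofructokinase, had 253 and 202 CPM in KO libraries, against 287, 297 and 406 CPM in WT libraries. Slc2a1 was above all WT libraries, as were the kinase genes Hk2 and Pfkm, at log2 0.51 ± 0.29 and 0.79 ± 0.36, while Pkm, Pfkl and Eno1 were below them. None of these passed edgeR's threshold.

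Of 20 hypoxia targets outside glycolysis, 3 were higher and 1 lower without overlap, with a median of 0.04 (between 0.04 without WT replicate 3 and 0.19 without WT replicate 1). Ddit4, an inhibitor of mTORC1, had 33.4 and 66.2 CPM in KO libraries, against 26.7, 23.5 and 14.6 CPM in WT libraries. Kdm3a, a histone demethylase, had 22.4 and 23.1 CPM in KO libraries, against 12.8, 16.3 and 8.82 CPM in WT libraries. Bnip3, a mitophagy receptor, had 32.5 and 27.3 CPM in KO libraries, against 61.5, 28.8 and 43.9 CPM in WT libraries, and the genotypes overlapped. The third higher gene was Vegfa, the angiogenic growth factor, at log2 0.68 ± 0.52, and the lower one Car9, a carbonic anhydrase, at -0.60 ± 0.63. Of 14 genes that decide the fate of pyruvate, 0 were higher and 3 lower, with a median of -0.08 (between -0.40 without KO replicate 2 and -0.07 without WT replicate 3) and Dlat, a subunit of pyruvate dehydrogenase, at log2 -0.56 ± 0.19. The others were Pdhb and Pdha1 of the same complex.

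Mitochondrial genes were mostly lower in KO libraries. Of 24 respiratory chain and ATP synthase genes, 0 were higher and 13 lower without overlap, and 23 had a negative difference. Over all genes, 16.5% were higher and 13.7% lower without overlap, and in the bin of the shortest transcripts 7.06% and 24.3%. The median of the list was -0.38 (between -0.53 without WT replicate 2 and -0.22 without WT replicate 1). Cycs, cytochrome c, had 182 and 169.7 CPM in KO libraries, against 419.6, 225 and 356 CPM in WT libraries (log2 -0.92 ± 0.29). Uqcrc1 of complex III had 1168 and 1373 CPM in KO libraries, against 2444, 1488 and 2134 CPM in WT libraries. Cox5a of complex IV had 224 and 242 CPM in KO libraries, against 438, 247 and 332 CPM in WT libraries. All 24 adjusted p-values missed the threshold. The median transcript of this list is short, at 1763 bases against 3070 over all genes, and the median was -0.27 with the length and GC offset and -0.53 without WT replicate 2. Of 20 tricarboxylic acid cycle genes, 2 were higher and 7 lower, with Mdh2, mitochondrial malate dehydrogenase, at 708 and 621 CPM in KO libraries, against 1276, 758 and 1147 CPM in WT libraries. The higher genes were Idh3b, an isocitrate dehydrogenase subunit, and Dld, a subunit shared by dehydrogenase complexes.

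Genes of protein synthesis and folding were likewise mostly lower without passing the test. Of 33 ribosomal protein genes, 0 were higher and 14 lower without overlap (all genes, 16.5% and 13.7%). Their median was -0.24 (between -0.38 without KO replicate 2 and -0.14 without WT replicate 1). Rpl5, which also binds MDM2, had 326 and 299 CPM in KO libraries, against 654, 399 and 571 CPM in WT libraries, and Rps15 had 346 and 450.0 CPM in KO libraries, against 1024, 515 and 679 CPM in WT libraries. The median transcript length of the list was 1120 bases, in the bin where 7.06% of genes were higher and 24.3% lower without overlap. With the offset the median of the list was -0.07. Of 12 genes of the unfolded protein response, 0 were higher and 8 lower, with a median of -0.45, which was -0.52 with the offset, -0.80 without KO replicate 1 and -0.21 without KO replicate 2. Pdia6, a disulfide isomerase of the endoplasmic reticulum, had 479 and 442 CPM in KO libraries, against 909.6, 657 and 773 CPM in WT libraries. Herpud1, a component of endoplasmic reticulum-associated degradation, had 88.7 and 65.9 CPM in KO libraries, against 149.9, 142 and 110.3 CPM in WT libraries. WT replicate 2 was the lowest WT library for Rpl5, Rps15 and Pdia6. Of 20 genes of MYC and ribosome biogenesis, 1 was higher and 2 lower, with Mycl, a MYC family member, at log2 1.40 ± 0.45 and the nucleolar genes Nop56 and Dkc1 as the lower ones. Of 16 ATF4 genes of amino acid stress, 0 were higher and 1 lower, Asns, asparagine synthetase, at log2 -0.71 ± 0.31.

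Of 29 genes of glutathione and antioxidant defence, 4 were higher and 7 lower without overlap, with a median of -0.07 (between -0.20 without KO replicate 2 and 0.08 without WT replicate 3) that was 0.11 with the offset and 0.05 with a replicate block. Over all genes tested, 16.5% were higher and 13.7% lower in that way. Gpx4, the peroxidase that protects membranes against lipid peroxidation, had 120.0 and 125 CPM in KO libraries, against 275, 157 and 232 CPM in WT libraries. Gpx1, the cytosolic glutathione peroxidase, had 2183 and 2177 CPM in KO libraries, against 3946, 2818 and 3351 CPM in WT libraries. Both peroxidases were below all WT libraries, whereas Gclc, the catalytic subunit that starts glutathione synthesis, was above them, with 91.8 and 86.8 CPM in KO libraries, against 43.9, 48.3 and 68.5 CPM in WT libraries. The other higher genes were Hmox1 (heme oxygenase), Txnrd1 (thioredoxin reductase) and Cat, and the other lower ones included Sod1, Prdx1 and Prdx6. Of 9 pentose phosphate genes, Tkt was higher and Taldo1 and Pgls were lower.

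Lipid genes gave few differences. Of 15 genes of fatty acid synthesis, desaturation and elongation, 3 were higher and 0 lower without overlap (all genes, 16.5% and 13.7%). The median was 0.36 (between 0.29 without WT replicate 2 and 0.42 without WT replicate 3) and 0.13 with the offset. The median transcript length was 4299 bases. Srebf1, the transcription factor of this pathway, had 62.8 and 72.4 CPM in KO libraries, against 23.2, 54.9 and 33.9 CPM in WT libraries. The others were Elovl6 and Acaca. Of 20 cholesterol synthesis genes, 2 were higher and 0 lower, with a median of -0.15 (between -0.58 without KO replicate 1 and 0.03 without KO replicate 2), and Srebf2, their regulator, was at log2 0.70 ± 0.33, with the reductase gene Dhcr7 as the other higher one. Of 11 sebaceous gland genes tested, 1 was higher, the regulator Pparg given above, and 2 were lower, Awat2 and Mgst1, with a median of -1.58. That median was -0.08 without WT replicate 1, whose level of these genes was the highest, -0.44 in a fit of the compared libraries only and 0.47 over the members with at least 10 CPM in 2 libraries. Awat2, a wax synthase, had 0.189 and 0.3503 CPM in KO libraries, against 1.87, 0.669 and 0.6902 CPM in WT libraries. Elovl3, a fatty acid elongase of sebocytes, had 0.114 and 0.0438 CPM in KO libraries, against 3.89, 0.287 and 0 CPM in WT libraries.

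Proliferation genes did not separate the genotypes. Of 30 cell cycle genes, 0 were higher and 1 lower without overlap, with a median of -0.42 (between -0.73 without KO replicate 1 and -0.02 without KO replicate 2). Pcna, the replication clamp, had 179 and 154 CPM in KO libraries, against 276, 181 and 249.7 CPM in WT libraries. Rrm2, a subunit of ribonucleotide reductase, had 301 and 151 CPM in KO libraries, against 527, 256 and 512 CPM in WT libraries. The list depended on single KO libraries, with a median of -0.73 without KO replicate 1 and -0.02 without KO replicate 2. Of 18 CDK inhibitors and p53 targets, 4 were higher and 1 lower, with a median of 0.26 (between 0.12 without WT replicate 1 and 0.43 without WT replicate 2). Cdkn1b (p27) had 15.9 and 7.18 CPM in KO libraries, against 2.31, 5.69 and 1.76 CPM in WT libraries, and Sesn1, a p53 target of the stress response, had 33.7 and 76.9 CPM in KO libraries, against 30.8, 33.3 and 21.7 CPM in WT libraries. Trp53 and Zmat3 were the other higher genes, and Phlda3, at log2 -0.68 ± 0.23, the lower one.

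SIRT6 acts in DNA repair at breaks. Of 24 DNA repair genes, 6 were higher and 3 lower without overlap, with a median of 0.04 (between -0.14 without KO replicate 1 and 0.24 without KO replicate 2), while 16.5% of all genes were higher and 13.7% lower in that way. Prkdc, the catalytic subunit of the kinase that joins broken ends, had 15.4 and 18.4 CPM in KO libraries, against 2.52, 10.2 and 4.601 CPM in WT libraries (log2 1.54 ± 0.48). Brca2 of homologous recombination had 14.5 and 5.299 CPM in KO libraries, against 4.61, 4.78 and 4.37 CPM in WT libraries. Parp2, a poly(ADP-ribose) polymerase, had 48.5 and 57.8 CPM in KO libraries, against 77.5, 64.02 and 82.4 CPM in WT libraries, below every WT library. Xrcc1 and Apex1 of base excision repair were the other lower genes, and Lig3, Rad50, Atr and Trp53bp1 the other higher ones.

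Of 20 basal keratinocyte and hemidesmosome genes, 4 were higher and 5 lower without overlap, with a median of 0.11 (between -0.01 without KO replicate 2 and 0.23 without WT replicate 2) and of -0.13 with the offset, at a median transcript length of 4864 bases. Krt14, the basal keratin whose promoter drives Cre, had 44037 and 43229 CPM in KO libraries, against 74974, 60789 and 68657 CPM in WT libraries (log2 -0.64 ± 0.26, adjusted p 0.5103). Trp63, the master regulator of stratified epithelia, had 243 and 244 CPM in KO libraries, against 169, 229.8 and 192 CPM in WT libraries. Itga2, Dst and Plec were the other higher genes, and Itga6, Itga3 and Itgb1 were among the other lower ones. Of 28 differentiation genes, Tgm3 was higher and Krtdap and Dmkn were lower, and the median of 0.19 was -0.62 without KO replicate 1 and 0.53 without KO replicate 2. Krtdap, a gene of early stratification, had 3213 and 2634 CPM in KO libraries, against 11757, 3575 and 7885 CPM in WT libraries. Sprr3, a cornified envelope precursor, had 1.33 and 0 CPM in KO libraries, and was at 0 in every WT library. Of 11 wound and stress keratins, 2 were higher, Krt17 at 3667 and 4492 CPM in KO libraries, against 2297, 2304 and 2782 CPM in WT libraries, and Krt19 at 0.568 and 1.45 CPM in KO libraries, against 0.288, 0.526 and 0.537 CPM in WT libraries.

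S100 genes, small calcium-binding proteins of the epidermis, were lower in KO without overlap at 6 of 12 genes and higher at 0. Over all genes, 13.7% were lower and 16.5% higher in that way, and in the bin of the shortest transcripts 24.3% and 7.06%. The median of the S100 list was -0.60 (between -0.78 without WT replicate 2 and -0.41 without KO replicate 1). S100a8, an alarmin shared with neutrophils, had 32.1 and 52.9 CPM in KO libraries, against 332, 82.6 and 53.3 CPM in WT libraries. S100a16 had 1152 and 928 CPM in KO libraries, against 2060, 1210 and 2164 CPM in WT libraries. WT replicate 1 held the highest S100a8 level by several fold. S100 transcripts are short, with a median of 700 bases, and the offset left a median difference of -0.53. The neutrophil and mast cell markers, which include S100a8 and S100a9, summed to 71.2 and 73.1 CPM in KO libraries, against 490, 138 and 81.8 CPM in WT libraries. Neutrophil granule genes were near 0, with Mpo at most 0.144 CPM.

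Stem cell and hair follicle genes gave 2 higher and 2 lower without overlap of 20, with a median of 0.39 (between 0.13 without KO replicate 2 and 0.53 without WT replicate 2), both shares being below those of all genes, 16.5% and 13.7%. Foxc1 and Cd44 were the higher ones and Twist1 and Nrp1 the lower ones. Lgr5, a follicle stem cell receptor, had 0.644 and 7.31 CPM in KO libraries, against 1.01, 0.239 and 0.614 CPM in WT libraries, with overlap. Nrp1, a receptor for semaphorins and VEGF, had 0.758 and 0.569 CPM in KO libraries, against 0.937, 1.003 and 2.301 CPM in WT libraries. Of 10 genes of epithelial-mesenchymal transition, 1 was higher, Snai2, a repressor of E-cadherin, at log2 0.66 ± 0.39, and 1 was lower, Twist1. Of 24 matrix and protease genes, Mmp14, a membrane-bound protease, was higher and Spp1 (osteopontin) lower, with Spp1 at 0.834 and 0.3503 CPM in KO libraries, against 6.99, 0.8599 and 2.91 CPM in WT libraries. Of 22 lysosome and autophagy genes, Ulk1 and Atg5 were higher and Ctsb, Ctsa, Atg7 and Becn1 lower, with a median of -0.01 (between -0.09 without KO replicate 2 and 0.01 without KO replicate 1) and Ctsb, a cathepsin, at log2 -0.42 ± 0.19.

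Among signalling pathways, Notch genes had the largest share above all WT libraries, at 6 of 12 tested, with 0 below. Over all genes, 16.5% were above and 13.7% below, and in the bin of the longest transcripts 30.3% and 5.17%. The median of the Notch list was 0.65 (between 0.47 without KO replicate 2 and 0.71 without WT replicate 2). The receptor gene Notch1 had 81.4 and 91.6 CPM in KO libraries, against 19.97, 59.96 and 17.5 CPM in WT libraries (log2 1.41 ± 0.65, adjusted p 0.5198). The receptor Notch3 had 7.35 and 5.82 CPM in KO libraries, against 3.03, 3.97 and 4.601 CPM in WT libraries. The ligand Jag1 had 66.9 and 78.1 CPM in KO libraries, against 38.5, 50.2 and 36.7 CPM in WT libraries. For Notch1 and Jag1, WT replicate 2 was the WT library nearest to KO. Rbpj, the DNA-binding partner of the receptors, had 3.49 and 4.42 CPM in KO libraries, against 2.02, 1.67 and 1.84 CPM in WT libraries, and the receptor Notch2 and the target Hey1 completed the 6. Notch genes have long transcripts, with a median of 5296 bases, and with the offset the median was 0.51. It was 0.66 without KO replicate 1.

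ERK output genes, which report RAS and MAP kinase activity, were above all WT libraries at 6 of 13 and below at 0. Over all genes, 16.5% were above and 13.7% below. The median of the ERK list was 0.33 (between 0.24 without WT replicate 1 and 0.74 without WT replicate 2) and 0.30 with the offset. Etv5, an ETS factor, had 25.4 and 31.8 CPM in KO libraries, against 15.1, 17.6 and 19.9 CPM in WT libraries. Spry2, a feedback inhibitor, had 6.897 and 12.2 CPM in KO libraries, against 4.25, 4.73 and 2.68 CPM in WT libraries. Ier3, an early response gene, had 834 and 1447 CPM in KO libraries, against 342, 608 and 283 CPM in WT libraries. The others were the feedback inhibitors Spred1, Spred2 and Spred3. Upstream of these, 2 of 13 RAS and EGF receptor genes were higher, Ereg and Areg, and 2 lower, Hras and Nras, with the ligand Ereg (epiregulin) at log2 0.84 ± 0.46 and the oncogene Hras, which DMBA commonly mutates, at -0.38 ± 0.24. Of 15 AP-1 and immediate early genes, 2 were higher, Egr2 and Egr3, and the median of 0.06 was -0.55 without KO replicate 1 and 0.48 without WT replicate 2.

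TGF-beta genes were above all WT libraries at 5 of 22 and below at 1, with a median of 0.36 (between 0.18 without KO replicate 2 and 0.60 without WT replicate 2), while 16.5% of all genes were above and 13.7% below. The ligand Tgfb3 had 21.03 and 50.4 CPM in KO libraries, against 4.69, 15.96 and 4.601 CPM in WT libraries (log2 2.07 ± 0.60). Smad4, the shared signal transducer, had 70.3 and 85.002 CPM in KO libraries, against 62.1, 69.6 and 49.6 CPM in WT libraries. KO replicate 2 had the highest Tgfb3 level of the 5 libraries. Tgfb1, Inhba and Tgfbi were the other higher genes and Bmp4 the lower one. Of 19 WNT genes, 3 were higher and 3 lower. The receptors Fzd6 and Fzd1 and the ligand Wnt5a were higher, with Fzd6 at 50.1 and 49.9 CPM in KO libraries, against 23.3, 31.8 and 25.5 CPM in WT libraries. The ligands Wnt3, Wnt4 and Wnt10a were lower, with Wnt4 at 248 and 171 CPM in KO libraries, against 429, 305 and 353 CPM in WT libraries.

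The interferon response had the largest median of the pathway lists, 2.17, and it rested on KO replicate 1. Of 27 genes, 25 had a positive difference and 15 had an unadjusted edgeR p under 0.05 (all genes, 9.59%). Without overlap, 4 were higher, Rsad2, Isg15, Cxcl10 and Ifit2. These were 14.8% of the list, against 16.5% of all genes. The mean level of the list, as log2(CPM + 1), was 4.11 in KO replicate 1 and 1.93 in KO replicate 2, against 1.85, 2.24 and 1.70 in WT libraries. Rsad2 (viperin, an antiviral enzyme) had 2.46 and 0.131 CPM in KO libraries, against 0.0721, 0 and 0 CPM in WT libraries. Isg15, a ubiquitin-like modifier, had 24.7 and 5.91 CPM in KO libraries, against 2.23, 3.63 and 3.53 CPM in WT libraries. Oasl2, an antiviral protein, had 44.3 and 0.263 CPM in KO libraries, against 0.721, 1.48 and 1.15 CPM in WT libraries. KO replicate 2 was below every WT library for Oasl2, and without KO replicate 1 the list's median was -0.38, with 4 genes higher and 6 lower (all genes, 30.8% and 26.7%). KO replicate 1 of the other populations had a list mean of 1.46 in CD34-positive a6-high cells and 3.88 in CD34-negative a6-low cells.

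Antigen presentation genes followed the same library. Of 15 tested, 3 were higher without overlap (all genes, 16.5%), Tap1, H2-T23 and the regulator Nlrc5. The median was 0.90, and it was 0.04 without KO replicate 1. Tap1, a peptide transporter, had 96.1 and 32.2 CPM in KO libraries, against 25.4, 31.9 and 23.7 CPM in WT libraries. H2-T23, a nonclassical MHC class I gene, had 83.3 and 58.4 CPM in KO libraries, against 33.7, 42.7 and 19.02 CPM in WT libraries. Of 28 NF-kappaB targets, cytokines and chemokines, Lcn2, Il1b, Tnf and Relb were higher and Il1f6 lower, with a median of 0.01 (between 0.00 without WT replicate 3 and 0.41 without WT replicate 2). Lcn2 (lipocalin 2, which binds siderophores) had 14.7 and 55.1 CPM in KO libraries, against 8.22, 13.998 and 4.29 CPM in WT libraries. Il1b had 1.402 and 0.963 CPM in KO libraries, against 0.144, 0.0955 and 0.307 CPM in WT libraries, and Il1f6, an IL-36 cytokine, had 0.606 and 0.394 CPM in KO libraries, against 2.74, 1.43 and 2.45 CPM in WT libraries.

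Markers of other cell types were low and uneven. The 17 macrophage and dendritic cell markers summed to 139 and 46.0 CPM in KO libraries, against 69.8, 20.1 and 18.6 CPM in WT libraries, with Cd74, the MHC class II chaperone, giving most of the sum in KO replicate 1. Of 13 tested, 5 were higher and 1 lower without overlap, against 16.5% and 13.7% of all genes. The median was 1.92 (between 0.66 without KO replicate 1 and 3.18 without WT replicate 1). Over the members with at least 10 CPM in 2 libraries it was 0.25. Lyz2, the lysozyme of myeloid cells, had 2.24 and 1.49 CPM in KO libraries, against 0, 0.143 and 0 CPM in WT libraries, and DESeq2 called it. The leukocyte marker Ptprc (CD45) had 2.61 and 0.526 CPM in KO libraries, against 0.649, 0.42996 and 0 CPM in WT libraries. The others were the complement genes C1qa and C1qb, the Fc receptor chain Fcer1g and Cd14, with Cd68 as the lower one. Cd14 had 7.88 and 8.23 CPM in KO libraries, against 4.90, 7.79 and 7.82 CPM in WT libraries, a small gap. C1qa, C1qb and Fcer1g were at most 0.682 CPM in any of the 5 libraries and rest on few reads. The markers did not share a highest library. KO replicate 1 was highest for Lyz2, Ptprc, Cd74, Tyrobp, Aif1, Itgax, C1qa and C1qb. KO replicate 2 was highest for Cd14, Fcer1g, Cd207, Adgre1 and Mrc1. WT replicate 1 was highest for Cd68 and Csf1r, and WT replicate 3 for Itgam and Cd163. Rsad2, Isg15, Oasl2, Tap1 and H2-T23 were highest in KO replicate 1, and the part of myeloid cells in those results was not tested. Melanocyte markers summed to 5.61 and 3.24 CPM in KO libraries, against 1.01, 1.099 and 1.92 CPM in WT libraries, with Dct, Tyrp1 and Mlana higher of 5 tested and Dct, a melanin enzyme, at 1.402 and 0.963 CPM in KO libraries, against 0, 0.143 and 0 CPM in WT libraries. T and natural killer cell markers summed to at most 0.537 CPM in any of the 5 libraries, and 0 of them reached the level tested, as for erythroid markers. Of 11 endothelial markers tested, Flt1 was higher and Esam and Egfl7 were lower, and of 7 fibroblast markers, none was without overlap in either direction.

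Of the 7 sirtuin genes, 0 were higher and 1 lower without overlap, Sirt7, a nucleolar sirtuin, at 71.8 and 63.7 CPM in KO libraries, against 79.9, 77.7 and 89.6 CPM in WT libraries. Of the 20 tested genes nearest to Sirt6 by order on the chromosome, 3 were higher, Nfic, Ankrd24 and Hcfc2, and 2 lower, with a median of -0.10. Over all genes, 16.5% were higher and 13.7% lower without overlap. The lower genes, Tdg and the uncharacterized 1190007I07Rik, were both called by DESeq2, which called 0.26% of all genes. The level of 1190007I07Rik was 5.798 and 5.74 CPM in KO libraries, against 10.5, 17.4 and 15.1 CPM in WT libraries. Over the lists named above, 0 of the members passed edgeR's threshold, while DESeq2 called Twist1, Gbp2, Pparg, Lyz2, Eif2s3y, Tdg and 1190007I07Rik.

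**Figure D5:**
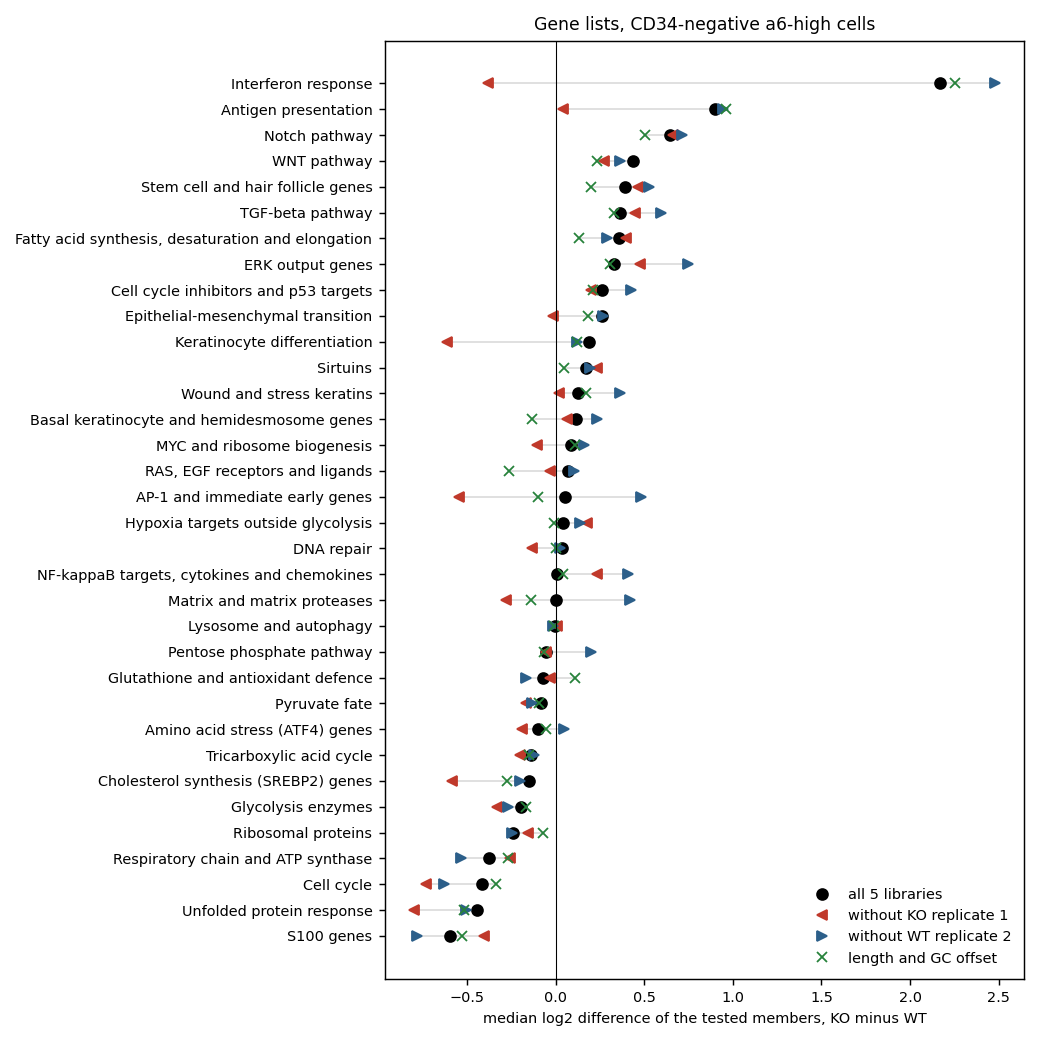
Median log2 difference between KO and WT of the tested members of each list (horizontal axis) over all 5 libraries (circle), without KO replicate 1 (left triangle), without WT replicate 2 (right triangle) and with the length and GC offset (cross). The interferon list goes from 2.17 to -0.38 without KO replicate 1, while Notch, ERK output and TGF-beta lists stay above 0, and respiratory chain, unfolded protein response and S100 lists below 0, in each setting shown.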

How the data were processed

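Libraries were made from sorted cells by the SMART-Seq v4 chemistry, which does not mark strand, per the labels' protocols. The authors deposited raw counts of reads for each Ensembl gene, not normalized. Per the submitters' processing notes, the build was mm9 and the tools were HTSeq 0.6.0, STAR 2.3.0 and Picard 1.100, whose roles and gene annotation are not given in the sources. The tables hold 37583 genes, of which 32860 (87.4%) were matched to a symbol by identifier. Library sizes and tests exclude 5 entries without a gene, among them reads outside genes (2.61% to 4.64% of the records of the 5 libraries) and reads aligned to several places (30.2% to 32.6%). This leaves genes that have near-identical copies with uncertain levels, and without strand a gene's reads cannot be separated from those of an antisense partner. Gene names, classes, gene order, transcript lengths and GC content came from a GENCODE annotation of another build, and no coordinates are given.

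Counts of all 15 libraries were fitted in 1 edgeR 4.0.16 model (R 4.3.3, quasi-likelihood F test, TMM, filterByExpr by group, 9 residual degrees of freedom) with a coefficient per genotype and population. KO minus WT and its difference from each other population were tested with Benjamini-Hochberg adjustment over 14652 genes at 0.05. SEs were derived from the F statistic, and fold bounds used a floor of 3 counts over a group at 0. The test and its code were checked on simulated data. Alternatives were a replacement of edgeR by DESeq2 1.42.0 or of TMM by DESeq2's size factors, other filters (none, or at least 10 CPM in 2 libraries), the compared libraries only, a replicate block and leaving out each library. An offset for transcript length and GC content was added after seeing the data. Bounds and floors cover counting error only.

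The rule named Sirt6, Itga6, Cd34, Krt5 and Krt14, every gene called, and the 12 higher and 12 lower protein-coding genes with the smallest p, a logCPM of at least 2 and no overlap of libraries, with Gm and Rik names and pseudogenes excluded. A few genes that the rule or a list takes are not reported here. It added, for each list, the 2 to 4 members of smallest p, and 3 genes per direction for each difference between populations. Genes called by DESeq2 alone that the rule does not take, other list members that complete a small count, and marker genes of other cell types were named after their values were seen. Members and the 44 lists were chosen with earlier results of these data known. Of 777 list entries, 771 were matched to a gene in the tables. No library was taken as a repeat deposit, since those of 1 genotype differed with a chi-square of at least 36.3 per degree of freedom. Where libraries are not from separate animals, p-values measure only the spread between these samples, which may be technical.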

Additional observations from a re-analysis of the deposited data

Results flagged for a closer look

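For 3 of the genes named by rule, every library of CD34-negative a6-high cells moved one way and every library of a neighbouring population the other way. None of these differences passed edgeR's test of the difference itself. Parm1, a mucin-like membrane protein, had 28.8 and 20.8 CPM in KO libraries, against 9.37, 19.1 and 7.82 CPM in WT libraries. In CD34-positive a6-high cells it had 9.78 and 6.22 CPM in KO libraries, against 14.2, 21.7 and 15.1 CPM in WT libraries, a difference of differences of 2.12 on the log2 scale. Ppan, a ribosome biogenesis factor, had 68.4 and 63.1 CPM in KO libraries, against 74.3, 80.98 and 74.5 CPM in WT libraries. In CD34-positive a6-high cells it had 75.5 and 70.3 CPM in KO libraries, against 61.98, 57.2 and 52.2 CPM in WT libraries, a difference of differences of -0.57. Zfp503, a zinc finger protein, had 6.06 and 8.45 CPM in KO libraries, against 3.46, 4.44 and 4.29 CPM in WT libraries. In CD34-negative a6-low cells it had 4.22 and 3.15 CPM in KO libraries, against 6.21, 4.88 and 5.45 CPM in WT libraries, a difference of differences of 1.42.

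Of the 4432 genes whose libraries did not overlap here, 1795 did not overlap in the same direction in CD34-positive a6-high cells, while 27 were higher here and lower there and 21 the reverse. In CD34-negative a6-low cells 800 had the same direction, 31 were higher here and lower there and 27 the reverse. The share of all genes without overlap in those populations was not counted, so these numbers have no baseline. Their libraries may come from the same animals, so a shared direction is not an independent repeat. Bgn was the gene for which DESeq2 called the difference from CD34-positive a6-high cells, at 5.62 ± 1.11 (SE) with an adjusted p of 0.00603, while edgeR gave an adjusted p of 0.9999.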

How the results depend on the processing

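For KO against WT the edgeR count of 1 gene was 38 in DESeq2 and 256 with no filter on low counts (206 higher, 50 lower, 26 of them shared with DESeq2's). It was 2 with a replicate block, Eno1b and Ddx3y, and 1 to 2 with each library left out, the 2 being Bgn and Eno1b without KO replicate 1. The deviations of same-numbered KO and WT libraries correlated at -0.06 and -0.03. With 2 KO libraries, the deviation of one is the mirror image of the other. These values therefore cannot show whether same-numbered libraries share more than a number. For the difference from CD34-positive a6-high cells the count of 0 was 1 in DESeq2, 20 with no filter, 0 with a replicate block and 0 to 0 with each library left out. From CD34-negative a6-low cells it was 13 with no filter, 0 with a replicate block and 0 to 0 with each library left out. The cause was not tested. DESeq2's size factors, the 10 CPM filter, the compared libraries alone and the length and GC offset left these counts at 1, 0 and 0. Genes at an unadjusted p under 0.05 numbered 1405 over all 5 libraries and 2478 without WT replicate 2, 969 without KO replicate 1, 761 without KO replicate 2, 664 without WT replicate 1, 725 without WT replicate 3 and 1308 with the offset. Of 510 alternative values for 43 named genes, 0 reversed and 41 passed the threshold where edgeR's main setting did not, 21 of them in DESeq2 and 19 with no filter. Most of these genes were picked for a small p or a lack of overlap in the same libraries. The absence of reversals was thus nearly fixed by that choice. Of 503 alternative list medians, 97 moved by more than the spread between libraries, and 21 of 42 lists changed sign in at least 1 setting. With 2 KO libraries of 1 sex each, the number of libraries limits each comparison, and differences at genes below about 1 CPM rest on few reads.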
